A study of Mus musculus with 2 samples.

Results

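The 10 genes described here encode proteins with which a vessel wall catches and attracts leukocytes. They are the selectins Selp and Sele, the immunoglobulin family ligands Icam1, Icam2 and Vcam1, the chemokine-binding receptor Ackr1, the colony-stimulating factor Csf3, and the chemokines Cxcl2, Ccl2 and Cx3cl1. They were taken as a named list and make up 10 of the 53380 features in the count matrices. All 10 are protein-coding genes whose ID and version matched the GENCODE M21 annotation of GRCm38. Sele (chr1:164048234-164057677), Selp (chr1:164115264-164150026) and Ackr1 (chr1:173331886-173333750) lie on chromosome 1. Icam2 (chr11:106377656-106388075), Csf3 (chr11:98701263-98703629) and Ccl2 (chr11:82035571-82037453) lie on chromosome 11. Icam1 is at chr9:21015985-21028817, Vcam1 at chr3:116109949-116129688, Cxcl2 at chr5:90903871-90905938 and Cx3cl1 at chr8:94772009-94782427.

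The cells came from sciatic nerves of adult mice that carried Cdh5(PAC)-CreERT2, a tamoxifen-inducible recombinase driven in endothelium, and the R26-TomatoLSL reporter, so that both groups share the same alleles. Cells that were TdTomato-positive and negative for CD45, a surface protein of leukocytes, were sorted after a warm enzyme digestion. The intact library came from pooled uninjured nerves, and the injured library from the bridge that forms in a lesion, collected on day 7. Each condition is 1 library of pooled tissue, so there was no replicate and no test, and every interval below covers counting error only. Injury cannot be told apart from differences in animals, sort or sequencing run, or from the difference in tissue between nerve and bridge. Below, "after injury" stands for the injured library.

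The matrices held 1618 intact barcodes with 9401203 UMIs (unique RNA molecules counted) and 2023 injured barcodes with 27157892 UMIs. The libraries shared 298 barcodes, and a cell was left out where its barcode had at least 5 times its UMIs in the other library. This left 718 intact cells (4542225 UMIs, median 4461 per cell) and 1274 injured cells (19989024 UMIs, median 11684) in the authors' 9 endothelial classes, pooled here as endothelium. Injured cells were thus read more deeply. Levels are given as CPM, the UMIs of a gene summed over the cells of a class and scaled to the sum of all their UMIs. The pan-endothelial markers all had UMIs and summed to 7550 CPM (intact) and 5721 CPM (injured). Ptprc, which encodes CD45, had 0 UMIs in both, which allows up to 0.660 CPM in the former and 0.150 CPM in the latter. Values of a class are given where it held at least 20 cells in that library. For EC_IMMAT, EC_PROLIF and EC_TIP the intact library kept 4, 11 and 4 cells, so these classes were read in the injured library alone. EC_CAP-PV+ (42 and 13 cells) was read in the intact library alone. The shared-barcode rule had left out 48, 27 and 17 further intact cells labelled EC_IMMAT, EC_PROLIF and EC_TIP, and 47 injured EC_BAR cells beside the 36 kept. The small numbers of these classes therefore depend on that rule.

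As background, leukocytes leave the blood mainly through small veins. Selectins on the vessel wall make passing leukocytes roll, chemokines held on the wall activate their integrins, and these integrins then grip ICAM and VCAM proteins. ACKR1 takes up chemokines from the tissue and presents them on venous endothelium. G-CSF, the product of Csf3, mobilises neutrophils from the bone marrow, CXCL2 attracts neutrophils, CCL2 attracts monocytes, and CX3CL1 is a membrane-bound chemokine that tethers cells with its receptor CX3CR1. Several of these genes are textbook targets of the NF-kB transcription factors, which inflammatory cytokines activate.

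Promoters are shown for members that were high together under the venous labels (Selp, Sele, Icam1) and for Cxcl2, one of the genes that were at least 2-fold higher after injury. They come from RefSeq on GRCm38.p6, which gave a promoter for 6 of the 10 members, namely Icam1, Sele, Selp, Ackr1, Cxcl2 and Cx3cl1. Icam2, Vcam1, Csf3 and Ccl2 had no entry. Each line gives the bases upstream of the annotated starts, 5′ to 3′ on the plus strand. Capitals mark matches, on either strand, to GGNNNTTCC, a loose form of the kappaB site that NF-kB dimers bind.
Icam1, chr9:21015690-21015939: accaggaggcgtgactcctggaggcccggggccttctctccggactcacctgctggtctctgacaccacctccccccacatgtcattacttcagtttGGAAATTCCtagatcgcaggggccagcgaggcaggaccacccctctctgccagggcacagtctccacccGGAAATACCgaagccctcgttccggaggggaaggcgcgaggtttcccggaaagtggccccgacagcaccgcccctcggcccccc
Sele, chr1:164047984-164048233: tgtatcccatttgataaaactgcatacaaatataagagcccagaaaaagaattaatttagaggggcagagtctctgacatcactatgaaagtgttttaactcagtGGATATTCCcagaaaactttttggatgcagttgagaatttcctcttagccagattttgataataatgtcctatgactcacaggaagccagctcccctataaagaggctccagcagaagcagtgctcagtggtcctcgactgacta
Selp, chr1:164115014-164115263: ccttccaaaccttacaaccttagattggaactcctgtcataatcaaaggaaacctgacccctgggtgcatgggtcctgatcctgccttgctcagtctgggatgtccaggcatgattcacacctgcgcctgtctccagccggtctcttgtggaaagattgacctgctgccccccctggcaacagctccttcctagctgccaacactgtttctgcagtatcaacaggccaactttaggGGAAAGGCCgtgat
Cxcl2, chr5:90903649-90903870: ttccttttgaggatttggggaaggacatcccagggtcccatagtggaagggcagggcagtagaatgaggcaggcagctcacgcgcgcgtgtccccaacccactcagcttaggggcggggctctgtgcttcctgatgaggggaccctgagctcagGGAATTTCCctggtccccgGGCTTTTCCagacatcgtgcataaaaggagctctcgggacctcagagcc
In the 250 bases before the RefSeq start the motif occurred in all 6 members with an entry, against 15.7% of 32851 promoters. For Ackr1 and Cx3cl1, which are not shown, only 3 and 79 of these bases lie upstream of the GENCODE start. Their matches, from 131 and 71 bases before the RefSeq start, lie past the GENCODE start. Icam1 had it at 153 to 145 and at 84 to 76 bases before the start, Sele at 145 to 137, Selp at 14 to 6, and Cxcl2 at 96 to 88 and at 77 to 69. A match describes the letters only and shows no bound factor.

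Across pooled endothelium, Csf3 and Cxcl2 were the members with the largest excess in injured nerve and Cx3cl1 was the member that was lower there. Csf3 had 17 UMIs (3.74 CPM, 95% interval 2.18 to 5.99) in the intact and 1079 UMIs (54.0 CPM, 50.8 to 57.3) in the injured library, a ratio of 14.4 (8.97 to 24.9). Cxcl2 had 12 UMIs (2.64 CPM, 1.37 to 4.61) and 696 UMIs (34.8 CPM, 32.3 to 37.5), a ratio of 13.2 (7.50 to 25.6). Both were thus close to the level of a few molecules in intact endothelium. Cx3cl1 had 68.0 CPM (60.7 to 76.1) in the intact and 12.6 CPM (11.1 to 14.3) in the injured library, 5.40-fold lower (4.55 to 6.40).

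The adhesion molecules and Ackr1 were already present in intact endothelium and differed less in the pool. Sele stood at 68.5 and 111 CPM, a ratio of 1.62 (1.44 to 1.83), Icam1 at 268 and 371 CPM (1.38, 1.30 to 1.47) and Selp at 380 and 522 CPM (1.37, 1.30 to 1.44). Ackr1 had 209 and 226 CPM (1.08, 1.01 to 1.16) and Icam2 had 216 and 194 CPM (0.899, 0.838 to 0.966). Vcam1 went the other way, from 335 CPM (intact) to 185 CPM (injured), 1.81-fold lower (1.70 to 1.92). Ccl2 stayed under the 10 CPM on average that counted as measured, with 5 UMIs (1.10 CPM), all in 1 cell, against 129 UMIs (6.45 CPM) in 46 cells. After adding 5 CPM to both levels, 2 of the 9 measured members were at least 2-fold higher after injury, against 4.79% of 8268 measured genes. Of the same 9, 1 was at least 2-fold lower, against 6.82% of genes, and 6 lay between. Past 2-fold in either direction were 3 of 9 members and 11.6% of genes. A gene at or under 5 CPM in the intact library reached a mean of 10 CPM only through the injured library. It was then at least 2-fold higher by construction. This held for both higher members, Csf3 (3.74 CPM) and Cxcl2 (2.64 CPM), and for such genes within the 4.79%. The median log2 ratio was 0.45 over the 9 members and 0.04 over all measured genes.

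**Figure D1:**
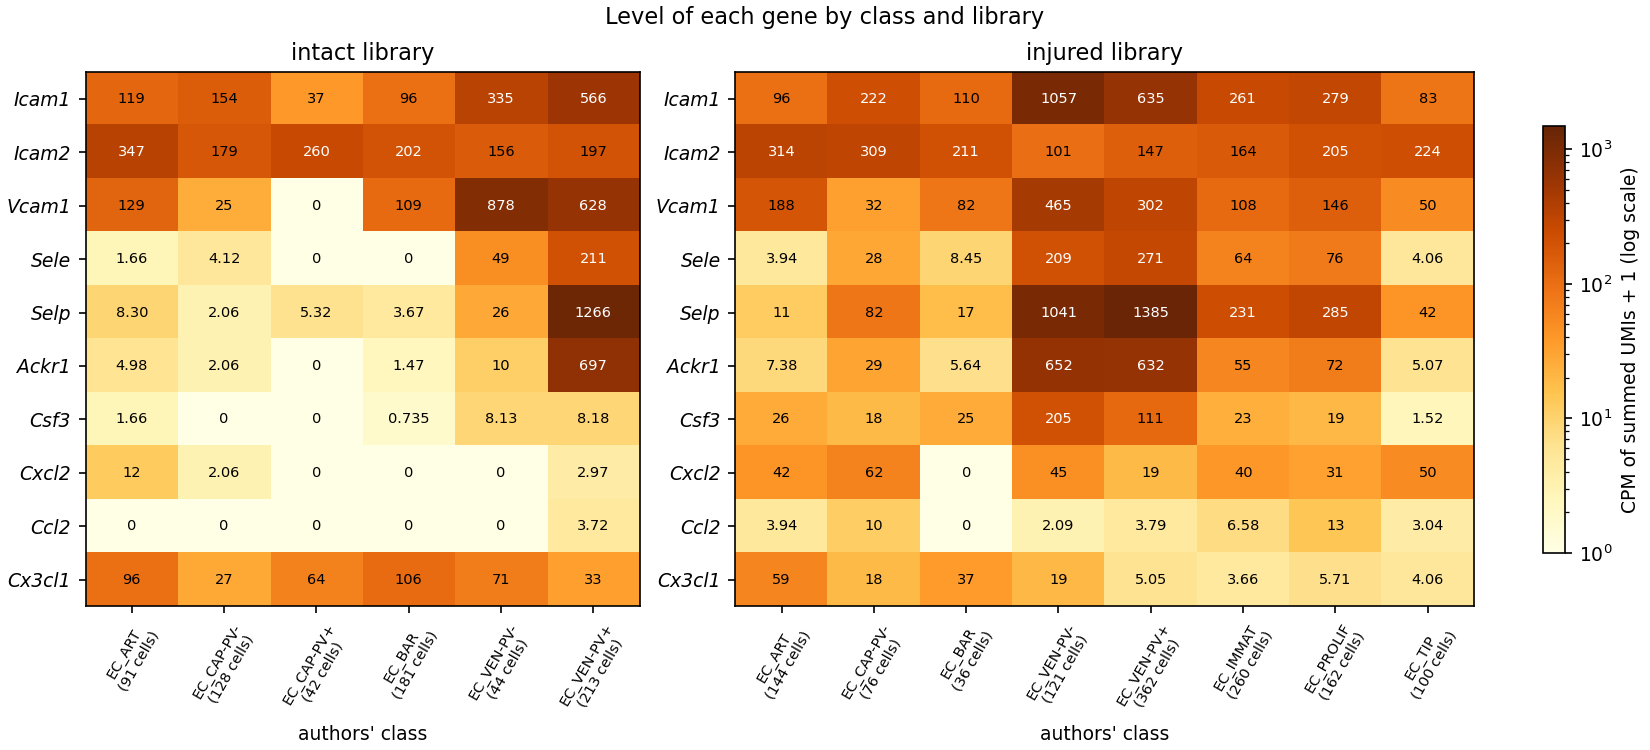
Level of each of the 10 genes (rows) in each of the authors' classes with at least 20 cells (columns), intact library on the left and injured library on the right, where colour (log scale of CPM + 1) and printed value give the CPM of summed UMIs. In the intact library Selp and Ackr1 are high in EC_VEN-PV+ alone, and in the injured library both venous columns carry them, with lower values in EC_IMMAT and EC_PROLIF.

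By class, the selectins and Ackr1 were highest under the venous labels, and in the intact library Selp and Ackr1 were high under 1 of them. Intact Selp stood at 1266 CPM (1703 of the 1728 endothelial UMIs, 98.6%) in the 213 EC_VEN-PV+ cells. Next came EC_VEN-PV- with 26.4 CPM (14.1 to 45.2) in 44 cells, whose interval overlapped that of EC_ART (8.30 CPM). The lowest intact class for Selp was EC_CAP-PV- with 1 UMI (2.06 CPM). Intact Ackr1 was also highest in EC_VEN-PV+, with 697 CPM (653 to 744), and next in EC_VEN-PV-, with 10.2 CPM (3.30 to 23.7), and had 0 UMIs in EC_CAP-PV+. Intact Sele had 211 CPM (187 to 237) in EC_VEN-PV+ and 48.8 CPM (31.2 to 72.5) in EC_VEN-PV-, and no more than 4.12 CPM elsewhere. Its 0 UMIs in EC_BAR allow up to 2.20 CPM.

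In the injured library the cells labelled EC_VEN-PV- carried all 3 genes at levels near those of EC_VEN-PV+. Selp had 1385 CPM (1352 to 1419) in 362 EC_VEN-PV+ cells and 1041 CPM (989 to 1095) in 121 EC_VEN-PV- cells. Ackr1 had 632 and 652 CPM in these labels, with overlapping intervals, and Sele had 271 and 209 CPM. Within EC_VEN-PV- the ratio of injured to intact was 39.4 for Selp (23.0 to 74.2; 13 and 1495 UMIs). It was 64.2 for Ackr1 (27.4 to 198; 5 and 936 UMIs) and 4.29 for Sele (2.83 to 6.79; 24 and 300 UMIs). For Sele the size moved with the processing, from a log2 ratio of 1.99 to 1.23 in thinned cells, 1.10 for per-cell CPM averaged and 2.95 in cells under 5% mitochondrial UMIs. Within EC_VEN-PV+ the same ratios were 1.09 (1.04 to 1.15), 0.906 (0.841 to 0.976) and 1.29 (1.13 to 1.47).

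Cells under the EC_VEN-PV- label differed between the libraries in other genes too. Plvap, a component of the diaphragms of fenestrated endothelium, had 44.7 CPM (intact) and 752 CPM (injured) there, against 2240 and 1716 CPM in EC_VEN-PV+. Slc2a1, the glucose transporter of barrier vessels, had 622 and 167 CPM in EC_VEN-PV-, and the 6 barrier markers summed to 6251 and 890 CPM. The venous markers that are not members (Nr2f2, Vwf, Ephb4, Nrp2, Aplnr) summed to 1398 and 2155 CPM there, to 2635 and 2327 CPM in EC_VEN-PV+ and to 458 and 543 CPM in EC_ART. None of them was among the 10 most enriched genes of a venous label in either library, where Selp, Ackr1 and Sele stood for EC_VEN-PV+. The 3 erythroid markers summed to 2472 CPM in intact EC_VEN-PV- and had 0 UMIs in the injured cells. Without cells holding over 50 haemoglobin UMIs, an alternative chosen after the data were seen, the log2 ratio there was 4.99 for Selp (5.06 with them), 5.59 for Ackr1 (5.44) and 1.92 for Sele (1.99). Whether the cells so labelled are of 1 kind in both libraries was not tested. With both venous labels summed (257 intact and 483 injured cells), an alternative chosen after the data were seen, Selp had 934 and 1305 CPM, a ratio of 1.40 (1.33 to 1.47). On the same sum Ackr1 had 513 and 636 CPM (1.24, 1.15 to 1.33) and Sele 168 and 257 CPM (1.53, 1.36 to 1.74). None of these 3 genes was then 2-fold higher.

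**Figure D2:**
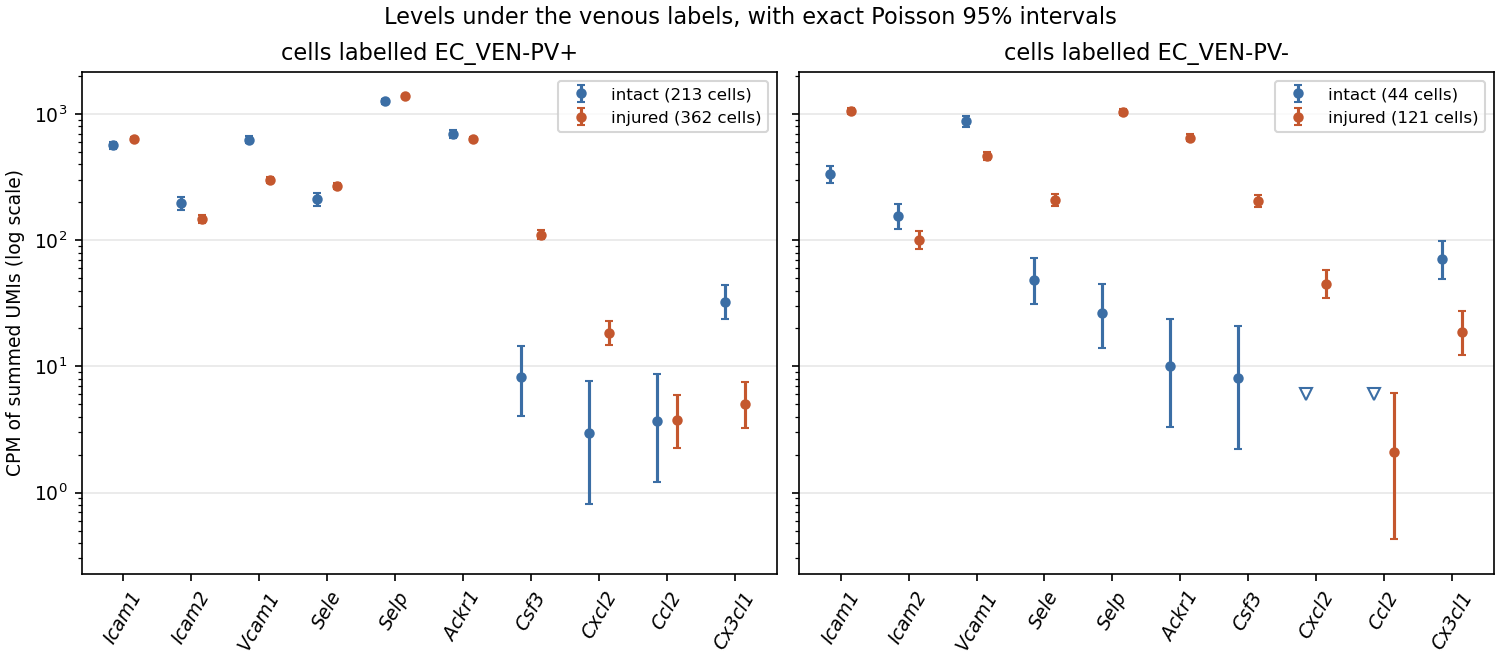
CPM (log scale) of the 10 genes in cells labelled EC_VEN-PV+ (left) and EC_VEN-PV- (right), intact in blue and injured in orange, with exact Poisson 95% intervals and open triangles at the level of 3 counts (6.09 CPM) where there were 0 UMIs. Selp, Ackr1, Sele and Icam1 lie close together on the left and far apart on the right, where intact Ackr1 sits at 10.2 CPM and injured Ackr1 at 652 CPM.

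The capillary label EC_CAP-PV- also carried more of the selectins and Ackr1 after injury, on few molecules. Selp had 1 UMI in 128 intact cells and 86 UMIs (81.8 CPM) in 76 injured cells, a ratio of 39.7 (6.94 to 1587). Ackr1 had 1 and 31 UMIs (14.3, 2.39 to 584), of which 1 injured cell held 58.1%. Sele had 2 and 29 UMIs (6.70, 1.69 to 57.9). In EC_ART the 3 genes stayed at or under 11.3 CPM in both libraries, and in EC_BAR at or under 16.9 CPM.

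Classes read in the injured library alone held the 3 genes at intermediate or lower levels. Injured EC_PROLIF, the class of dividing cells, had 285 CPM of Selp (269 to 302), 75.7 CPM of Sele and 72.1 CPM of Ackr1. Injured EC_IMMAT had 231 CPM of Selp (217 to 247), 63.7 CPM of Sele and 55.4 CPM of Ackr1. EC_TIP, the class at the front of sprouts, was lower, with 41.6, 4.06 and 5.07 CPM. For each of the 3 genes EC_PROLIF, EC_IMMAT and EC_CAP-PV- followed the venous labels in that order, EC_PROLIF and EC_IMMAT with overlapping intervals for Sele only.

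The integrin ligands were spread more widely. Icam1, which binds leukocyte beta-2 integrins, was highest under the venous labels in both libraries, with 566 CPM (526 to 607) in intact EC_VEN-PV+ and 335 CPM (286 to 390) in intact EC_VEN-PV-. In the injured library the order turned, with 1057 CPM (1005 to 1112) in EC_VEN-PV- and 635 CPM (613 to 658) in EC_VEN-PV+. The ratio was 3.15 (2.68 to 3.73) in EC_VEN-PV-, 1.12 (1.04 to 1.22) in EC_VEN-PV+ and 1.45 (1.35 to 1.56) over both venous labels. EC_CAP-PV- had 154 and 222 CPM (1.43, 1.10 to 1.89). EC_BAR had 96.2 and 110 CPM and EC_ART 119 and 96.5 CPM, both with intervals of the ratio that included 1 (0.777 to 1.64 and 0.613 to 1.07). Injured EC_PROLIF (279 CPM) and EC_IMMAT (261 CPM) followed the venous labels, with overlapping intervals. The interval of EC_IMMAT also overlapped that of EC_CAP-PV-, the next class.

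Vcam1, which binds the alpha-4 integrins of monocytes and lymphocytes, was lower in injured than in intact cells under both venous labels. It had 628 CPM (586 to 671) in intact and 302 CPM (286 to 318) in injured EC_VEN-PV+, 2.08-fold lower (1.91 to 2.27). EC_VEN-PV- had 878 and 465 CPM, 1.89-fold lower (1.67 to 2.13). In EC_ART it was higher after injury, with 129 and 188 CPM, a ratio of 1.45 (1.13 to 1.87). EC_BAR (109 and 82 CPM) and EC_CAP-PV- (24.7 and 32.3 CPM) had intervals of the ratio that included 1. The order of classes was the same at the top in both libraries, EC_VEN-PV-, EC_VEN-PV+ and then EC_ART, and intact EC_CAP-PV+ had 0 UMIs.

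Icam2, a constitutive ligand of the same integrins as Icam1, showed another order, with EC_ART highest in both libraries (347 and 314 CPM) and the venous labels lowest after injury. In intact nerve each class overlapped its neighbour in the order, down to 156 CPM in EC_VEN-PV-. After injury EC_CAP-PV- stood at 309 CPM, next to EC_ART, and EC_VEN-PV- at 101 CPM. The ratio was 1.73 (1.36 to 2.21) in EC_CAP-PV-, 0.746 (0.647 to 0.863) in EC_VEN-PV+ and 0.646 (0.486 to 0.862) in EC_VEN-PV-. In no class was Icam2 at least 2-fold apart.

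The secreted factors split into a venous and a spread pattern. Csf3 was under 10 CPM in every intact class, with 11 UMIs in EC_VEN-PV+ and 4 in EC_VEN-PV-. In injured nerve it stood at 205 CPM (183 to 230) in EC_VEN-PV-, 111 CPM (102 to 121) in EC_VEN-PV+, 25.6 CPM in EC_ART, 25.4 CPM in EC_BAR, 22.9 CPM in EC_IMMAT, 18.8 CPM in EC_PROLIF and 18.1 CPM in EC_CAP-PV-. These last 5 overlapped from neighbour to neighbour, and EC_TIP was lower at 1.52 CPM (3 UMIs). The ratio was 13.6 (7.53 to 27.4) in EC_VEN-PV+ and 25.3 (9.77 to 93.4) in EC_VEN-PV-, and 16.3 (9.82 to 29.2) over both. A single injured EC_VEN-PV- cell held 113 of the 295 UMIs (38.3%), so it weighs on the level of that label and on its place above EC_VEN-PV+. Without the top cell of each library the log2 ratio there was 3.87 against 4.0. That setting also lowers the intact level, which rests on 4 UMIs, so it does not show the weight of the injured cell alone. The order of the venous labels without that cell was not tested.

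Cxcl2 was not highest under a venous label in injured nerve. Its highest value was 61.8 CPM (47.7 to 78.8) in EC_CAP-PV-, followed by EC_TIP (49.7), EC_VEN-PV- (45.3), EC_ART (42.3), EC_IMMAT (40.0) and EC_PROLIF (30.9), each overlapping the next. EC_VEN-PV+ was lower at 18.5 CPM (14.8 to 22.8), and EC_BAR had 0 UMIs, which allows up to 8.45 CPM in its 36 cells. In intact nerve 12 UMIs were found in all, 7 of them in EC_ART, where 1 cell held 85.7%. The ratio was 3.64 (1.69 to 9.33) in EC_ART, 6.22 (2.35 to 23.3) in EC_VEN-PV+ and 30.0 (5.20 to 1204) in EC_CAP-PV-. EC_VEN-PV- had 0 intact and 65 injured UMIs, at least 7.43-fold higher when set against 3 counts over the group.

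Ccl2 was scarce in every endothelial class, at most 13.3 CPM (10.1 to 17.3) in injured EC_PROLIF, where 1 cell held 55.4% of 56 UMIs. In the class the authors named INTERMEDIATE, which is not labelled endothelial, 71 injured UMIs (295 CPM) came from 1 of 88 cells. Barcodes without a class that held fibroblast markers had 10.2 CPM in intact and 284 CPM (268 to 301) in injured nerve, with a UMI in 35.5% of 251 injured cells. Pooled endothelium of the same injured library had a UMI in 3.61% of cells.

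Cx3cl1 was the one chemokine of the list that was lower after injury, and its classes differed from those of the others. In intact nerve it was highest in EC_BAR (106 CPM, 89.2 to 125), EC_ART (96.3 CPM), EC_VEN-PV- (71.1 CPM) and EC_CAP-PV+ (64 CPM), with overlap from each to the next. EC_VEN-PV+ (32.7 CPM) and EC_CAP-PV- (26.8 CPM) came last. It was 6.48-fold lower (3.86 to 11.1) in injured EC_VEN-PV+, 3.78-fold lower (2.22 to 6.50) in EC_VEN-PV- and 2.89-fold lower (1.64 to 5.56) in EC_BAR. EC_ART differed less, with 96.3 and 58.6 CPM (1.64-fold lower, 1.18 to 2.27), and in EC_CAP-PV- the interval of the ratio included 1 (0.316 to 1.49). Injured EC_IMMAT, EC_PROLIF and EC_TIP held 3.66, 5.71 and 4.06 CPM, so that classes with few intact cells weigh on the pooled ratio. With classes weighted equally the pooled log2 ratio was -1.14, against -2.05.

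**Figure D3:**
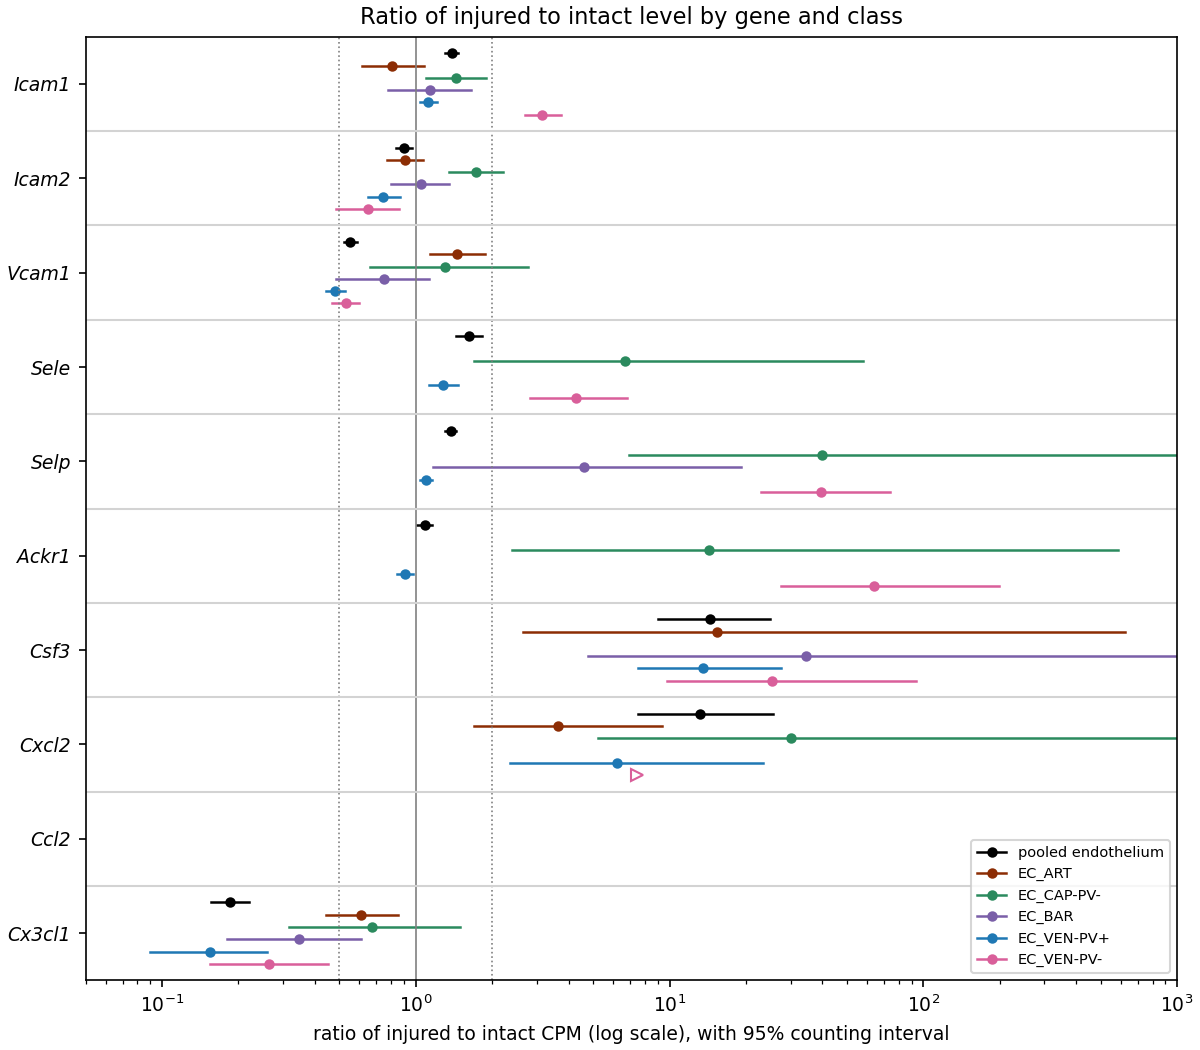
Ratio of injured to intact CPM (log axis) for each gene in pooled endothelium and in the 5 classes with at least 20 cells in both libraries, with exact 95% counting intervals cut off at 1000, dotted lines at 2-fold, and no values under a mean of 10 CPM (none for Ccl2). The open triangle for Cxcl2 in EC_VEN-PV- marks 7.43, the injured level over 3 intact counts, where the lower 95% limit was 5.87. Csf3 and Cxcl2 lie to the right wherever drawn, Cx3cl1 to the left, and Selp and Ackr1 spread from near 1 in EC_VEN-PV+ to 39.4 and 64.2 in EC_VEN-PV-.

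Counted by class, EC_VEN-PV- had 6 of 9 measured members at least 2-fold higher (Icam1, Sele, Selp, Ackr1, Csf3, Cxcl2), against 7.91% of 8030 measured genes in that class. Cx3cl1 alone was lower, against 6.34% of genes, and 14.2% of genes lay past 2-fold either way. With both venous labels summed 2 of 9 were higher (Csf3, Cxcl2) and 2 lower (Vcam1, Cx3cl1), against 3.46% and 4.70% of 8131 genes (8.15% either way). EC_VEN-PV+ alone gave the same 2 higher and 2 lower members of 9, against 3.77% and 4.61% of 8108 genes (8.39% either way). Vcam1 was just past the line there, with a log2 ratio of -1.04. EC_CAP-PV- had 4 of 8 higher (Sele, Selp, Ackr1, Cxcl2) and 0 lower, against 5.76% and 9.21% of 8156 genes (15.0% either way), on intact counts of 1 or 2 UMIs for all 4. EC_ART had 2 of 6 higher (Csf3, Cxcl2) and 0 lower, against 6.07% and 7.31% of 8137 genes (13.4% either way). EC_BAR had 2 of 6 higher (Selp, Csf3, each on under 10 injured UMIs) and 1 lower (Cx3cl1), against 6.29% and 6.87% of 7951 genes (13.2% either way). In INTERMEDIATE 4 of 8 were higher (Sele, Selp, Ackr1, Ccl2) and 1 lower (Cx3cl1), but there 14.9% and 16.5% of 8707 genes were past the same lines (31.4% either way). Members under 5 CPM in the intact library were again higher by construction once measured. These were Csf3 in EC_ART, Selp and Csf3 in EC_BAR and all 4 in EC_CAP-PV-. Cxcl2 under each venous label and on their sum was another case, as was Ccl2 in INTERMEDIATE. Such calls show no more than the levels do.

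Because injured cells were deeper, shares of cells with a UMI were also read after thinning every cell to 2000 UMIs, which left 583 intact and 1255 injured endothelial cells. Selp was then detected in 65.3% (58.3 to 71.9) of intact and 79.7% (75.1 to 83.7) of injured EC_VEN-PV+ cells. In EC_VEN-PV- it was detected in 6.82% (1.43 to 18.7) and 65.0% (55.8 to 73.5). Before thinning these shares were 79.3% and 97.0%, and 13.6% and 85.1%. Ackr1 was detected in 55.4% and 60.4% of thinned EC_VEN-PV+ cells, with overlapping intervals, and in 0 of 44 and 62.5% (53.2 to 71.2) of EC_VEN-PV- cells. The 0 is a limit of detection at 2000 UMIs per cell and allows up to 6.82% at that depth, while before thinning 3 of the 44 intact cells (6.82%) and 85.1% of the injured cells held a UMI.

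As a measure of stray RNA, cells without a class that held fibroblast markers had a Selp UMI in 0.880% of intact and 1.65% of injured cells after thinning. Before thinning these shares were 5.70% (351 cells, median 6586 UMIs) and 10.4% (251 cells, median 11672 UMIs). The thinned shares of Selp in intact EC_ART (1.45%), EC_CAP-PV- (1.25%) and EC_BAR (0.690%) were of that size and are read as background. Injured EC_PROLIF (26.4%) and EC_IMMAT (26.1%) were far above it.

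Sele in EC_VEN-PV+ was detected in 18.3% (13.2 to 24.4) of intact and 35.9% (31.0 to 41.1) of injured thinned cells, intervals that did not overlap, and before thinning in 32.4% and 70.7%. In EC_VEN-PV- the thinned shares were 11.4% and 29.2%, with overlapping intervals. Fibroblast-like cells had 0.293% and 1.24%. Icam1 was detected in 52.0% and 61.8% of EC_VEN-PV+ and in 45.5% (30.4 to 61.2) and 75.8% (67.2 to 83.2) of EC_VEN-PV- cells. It is no endothelial gene alone, since fibroblast-like cells had it in 15.8% and 22.3%.

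Vcam1 was detected in 50.5% (43.4 to 57.6) of intact and 39.0% (33.9 to 44.3) of injured thinned EC_VEN-PV+ cells, with overlapping intervals, and in 52.3% and 52.5% of EC_VEN-PV- cells. The lower Vcam1 level in injured EC_VEN-PV- thus went with a like share of cells. Csf3 was detected in 0 of 583 thinned intact endothelial cells, which at 2000 UMIs per cell allows up to 0.515%, and in 6.37% of 1255 injured ones, with 15.0% in injured EC_VEN-PV- and 12.5% in injured EC_VEN-PV+. Before thinning 1.67% of 718 intact and 17.3% of 1274 injured cells held it. Cxcl2 had 0.686% and 3.98%, and Cx3cl1 12.3% and 2.31%. Fibroblast-like cells of the injured library had Cxcl2 in 5.37% (2.89 to 9.01), which overlapped the endothelial share (2.97 to 5.22), so that Cxcl2 was not particular to endothelium.

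**Figure D4:**
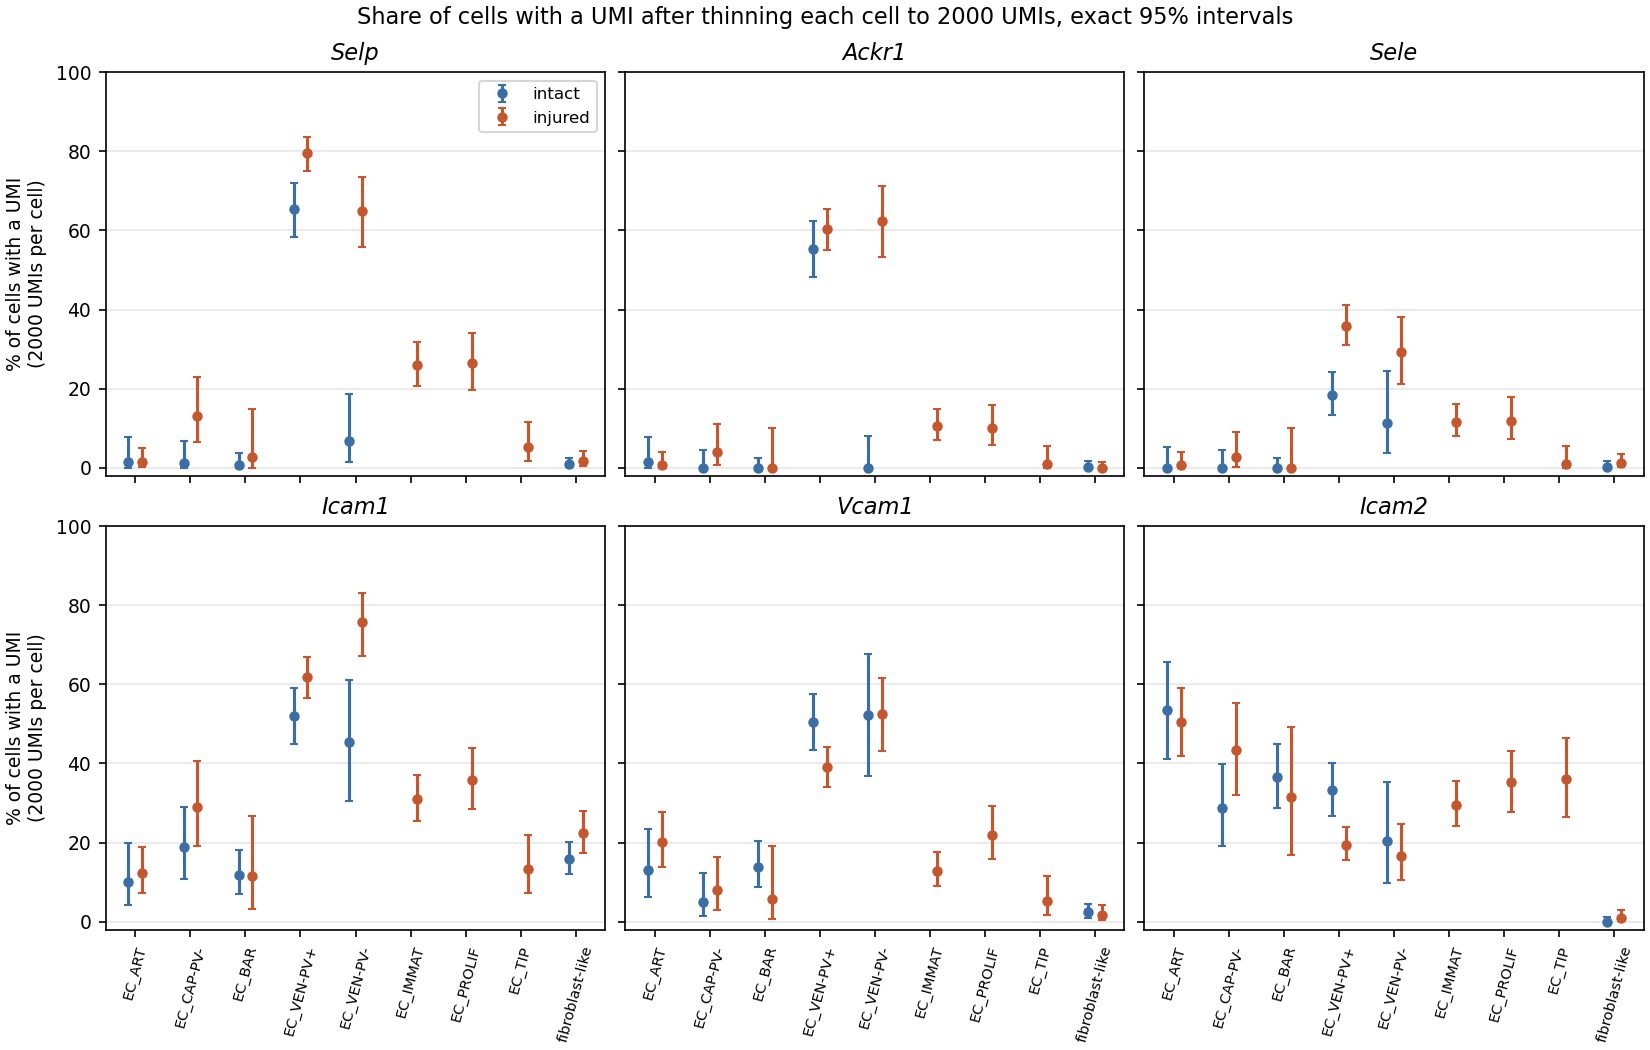
Percent of cells with at least 1 UMI of Selp, Ackr1, Sele, Icam1, Vcam1 or Icam2 after each cell was thinned to 2000 UMIs, by class, with intact in blue, injured in orange, exact 95% intervals, and fibroblast-like cells without a class at the right of each panel. Selp in EC_VEN-PV- is 6.82% in the intact and 65.0% in the injured library, while in EC_ART it is 1.45% and 1.44%.

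Members were also counted together in single cells. Of 213 intact EC_VEN-PV+ cells 144 held UMIs of both Selp and Ackr1, as did 302 of 362 injured ones. Under EC_VEN-PV- this held for 1 of 44 intact and 94 of 121 injured cells, and after thinning for 0 of 44 and 51 of 120 cells (42.5%). In injured EC_VEN-PV+ 255 of the 256 cells with Sele also had Selp, which 97.0% of all cells of that class held. Csf3 and Cxcl2 met in 46 of 1274 injured endothelial cells, out of 221 with Csf3 and 158 with Cxcl2. The mean number of the 10 members detected per thinned cell was 2.85 and 3.12 in EC_VEN-PV+, 1.48 and 3.25 in EC_VEN-PV-, and 1.00 and 1.01 in EC_ART.

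Other genes of the same processes were read from lists as counts of measured members at least 2-fold higher or lower in pooled endothelium, where 4.79% and 6.82% of measured genes were past these lines. Among other chemokines, 4 of 21 were measured, with 1 higher, 1 lower and a median log2 ratio of 0.10. Cxcl1, a neutrophil chemokine like Cxcl2, had 35.4 and 123 CPM (3.48, 2.96 to 4.10) and Cxcl10 25.1 and 38.7 CPM (1.54, 1.27 to 1.89). Cxcl12, a chemokine of resting vessels, was 5.94-fold lower (5.76 to 6.14), from 1936 to 326 CPM, and Cxcl9 had 14.8 and 10.7 CPM. In the pool Cxcl1 was thus higher like Cxcl2, and Cxcl12 lower like Cx3cl1, which compares the direction of the ratios only.

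Of 10 other cytokines and growth factors for leukocytes 5 were measured, with 0 higher, 1 lower and a median of -0.83. The highest ratios were those of Il6 (26.4 and 52.2 CPM; 1.98, 1.64 to 2.41) and Il15 (22.0 and 17.6 CPM). Kitl, the ligand of KIT, was 2.07-fold lower (1.97 to 2.19), and Csf1, the macrophage growth factor, had 51.5 and 23.4 CPM. Among other adhesion and diapedesis molecules 16 of 20 were measured, with 3 higher, 3 lower and a median of -0.06. Glycam1, a mucin-like glycoprotein of specialised venules, had 5 and 716 UMIs (1.10 and 35.8 CPM; 32.5, 13.9 to 101), and Mcam had 88.7 and 280 CPM (3.15, 2.85 to 3.50). The junction proteins Jam3 and Jam2 were 3.83-fold (3.18 to 4.60) and 2.52-fold (2.39 to 2.66) lower.

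Of 4 chemokine receptors of endothelium 2 were measured, Cxcr4 with a ratio of 5.21 (3.62 to 7.78) and Ackr3 with 0.579 (0.489 to 0.688). All 17 NF-kB targets and regulators were measured, and 1 was higher, 1 lower and 15 between, with a median of 0.31. Tnfaip3, an inhibitor that NF-kB induces, had 25.1 and 59.4 CPM (2.37, 1.95 to 2.90), Bcl3 had 34.8 and 55.7 CPM, Rela had 60.3 and 46.2 CPM, and Irf1 was 2.91-fold lower (2.74 to 3.09). Under EC_VEN-PV-, 5 of the 17 were higher (Nfkbie, Relb, Bcl3, Tnfaip2, Tnfaip3, named after their values were seen), against 7.91% of genes in that class, 1 was lower, against 6.34%, and the median was 0.51. Under EC_VEN-PV+ 0 were higher and 0 lower, against 3.77% and 4.61% of genes, with a median of 0.19. Of 13 receptors for inflammatory signals 12 were measured, with 0 higher, 3 lower and a median of -0.20. Ifngr2 (1.98, 1.59 to 2.47) and Ltbr (1.40, 1.21 to 1.62) had the highest ratios, and Il6ra and Il10rb were 7.70-fold (5.72 to 10.4) and 3.09-fold (2.75 to 3.46) lower.

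The leukocyte side of these contacts was near 0 in the sorted endothelium. None of the partner genes Selplg, Itgal, Itgam, Itgb2, Itga4, Cx3cr1, Ccr2, Cxcr2 and Csf3r reached 10 CPM. Among these, Itga4, an integrin gene, had 4 intact and 5 injured UMIs. The 14 leukocyte markers summed to 48.9 CPM (intact) and 39.4 CPM (injured), with 9 and 10 of them above 0. Ptprc, Tyrobp, C1qa and Nkg7 had 0 UMIs in both libraries, and Lyz2 had 5 and 4. Laptm5 was higher in the injured library, with 1 and 115 UMIs (0.22 and 5.75 CPM), as was Coro1a, with 5 and 86 (1.10 and 4.30 CPM). S100a8 and S100a9 had 64 and 85 intact UMIs, against 4 and 4 in the injured library. Of these intact UMIs 64 and 84 lay in the 11 EC_PROLIF cells, so both genes weigh on the intact sum. Cd14, a lipopolysaccharide co-receptor on that list, made up 545 of the 788 injured marker UMIs and stood at 35.7 and 64.4 CPM in EC_VEN-PV+ and at 6.09 and 80.1 CPM in EC_VEN-PV-. Cells with at least 2 marker UMIs were 12 of 718 intact and 160 of 1274 injured cells, among them 74 of 362 injured EC_VEN-PV+ cells. Without them the pooled log2 ratio of Csf3 was 2.35 against 2.75, and within EC_VEN-PV- 2.70 against 4.0. Pooled Sele was then 0.50 against 0.66 and Ackr1 -0.01 against 0.11, and in EC_VEN-PV- Selp was 4.87 against 5.06 and Cxcl2 2.97 against 3.33. The counts of members at least 2-fold higher or lower without these cells were 2 and 1 in the pool and 6 and 1 in EC_VEN-PV-, as with them.

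The 15 immediate early and heat shock genes, which warm digestion is known to raise, were all measured. In pooled endothelium 0 were higher and 12 lower after injury, with a median log2 ratio of -1.52, and Nr4a1 (397 and 286 CPM) and Dnajb1 (128 and 65.4 CPM) came nearest to 0. Hspa1a was 8.0-fold lower (7.16 to 8.95) and Hspa1b 6.93-fold (6.06 to 7.93). This list moved with Cx3cl1 and against Csf3 and Cxcl2, and its part in the members' ratios was not tested.

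Likeness of levels was read over 16 profiles of class by library as the Pearson correlation of log2(CPM + 5) among 7906 genes. It is a description, since profiles of a library share depth, sort and stray RNA. Selp was most like Ackr1 (r = 0.975) and Olfm1 (0.944), and Sele most like Selp (0.944) and Ackr1 (0.939). Icam1 was most like Shb (0.909) and Sele (0.901), Icam2 most like Crip2 (0.915) and Pik3cb (0.904), and Vcam1 most like Vwf (0.902) and Csf2rb2 (0.897). For Csf3 the nearest genes were Glycam1 (0.926) and Dusp2 (0.831), for Cxcl2 Tpd52l2 (0.897) and Rgs19 (0.893), and for Cx3cl1 Fos (0.936) and Clstn1 (0.934). Ccl2 was nearest to S100a9 (0.912) and S100a8 (0.910), all of them with their highest injured level in INTERMEDIATE (295, 291 and 262 CPM), where Ccl2 came from 1 cell. Among the members themselves, Icam2 and Cx3cl1 ran against the selectins, with r of -0.484 and -0.612 to Selp.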

How the data were processed

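Per the labels' protocols, nerves were pooled, digested warm and sorted as TdTomato-positive, CD45-negative cells. The matrices the authors deposited hold raw counts of UMIs per gene and barcode, made with Cell Ranger 3.0.2 per the file headers; the submitters' processing notes name Cell Ranger 3.0.2 and 6.1.2, Seurat 4.0.1, and as builds GRCm38 and mm10. The authors also deposited a table with a class for 866 intact and 1435 injured barcodes, and the sources used here do not give its filters, doublet treatment or method of classing. No doublet caller was run.

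Cells were matched to that table by library and barcode, and 102 intact and 73 injured cells with a class were left out because their barcode had at least 5 times their UMIs in the other library. UMIs were summed per class and library (Python 3.11.15, numpy 2.4.6, scipy 1.17.1, pandas 2.3.3). Intervals at 95% are exact: Poisson for CPM, Clopper-Pearson for shares, conditional binomial for ratios. Log2 ratios had 5 CPM added, a measured gene had a mean of at least 10 CPM, and a class needed at least 20 cells. Thinning drew 2000 UMIs per cell (seed 1). Fibroblast-like barcodes had no class, at least 1000 UMIs, at least 4 of 7 fibroblast marker genes and more UMIs of these than of pan-endothelial markers. The calls and intervals were tested on Poisson counts simulated for pooled endothelium with known ratios. The genes changed there lay above the pooled mean levels of Csf3, Cxcl2 and Cx3cl1, the members past 2-fold in the pool. The draws held no clustering of UMIs in single cells. They therefore cannot check the intervals of low genes, of small classes or of genes held by few cells.

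Classes are the authors'. Among their 10 most enriched genes, EC_ART, EC_BAR, EC_CAP-PV-, EC_PROLIF and EC_TIP had most markers of their own name. The venous labels had none beside members, intact EC_VEN-PV- had 4 haemoglobin genes, and intact EC_CAP-PV+ had 1 tip and 0 capillary markers. The members and gene lists were chosen with earlier results of these data known. Named from each list were the 2 highest and 2 lowest pooled ratios among measured genes, and for likeness the 2 nearest genes. GENCODE M21 held 50604 (94.8%) of the 53380 feature IDs with their version. Alternatives varied the shared barcodes, depth, thinning, weighting, the CPM added, mitochondrial share, leukocyte marker UMIs and the low-value filter.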

Additional observations from a re-analysis of the deposited data

Results flagged for a closer look

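For 3 members the ratio of injured to intact CPM lay above 1 in some classes and below 1 in others, with counting intervals that excluded 1 on both sides. Between classes these differences were not tested, since each condition is 1 library. Icam2 had a ratio of 1.73 (1.36 to 2.21) in EC_CAP-PV-, 0.746 (0.647 to 0.863) in EC_VEN-PV+ and 0.646 (0.486 to 0.862) in EC_VEN-PV-. Vcam1 had 1.45 (1.13 to 1.87) in EC_ART, 0.481 (0.441 to 0.524) in EC_VEN-PV+ and 0.530 (0.469 to 0.600) in EC_VEN-PV-. Ackr1 had 14.3 (2.39 to 584) in EC_CAP-PV- on 1 and 31 UMIs, 64.2 (27.4 to 198) in EC_VEN-PV- and 0.906 (0.841 to 0.976) in EC_VEN-PV+.

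Barcodes without a class, which the comparisons do not use, held 8 members at a CPM at least 2 times that of the intact library, before any CPM was added. Cx3cl1 and Csf3 had means under 10 CPM there and did not count as measured. No share of all genes past 2-fold was computed for these barcodes, so the 8 members have no share to be read against. The make-up of these barcodes also differed between the libraries. Summed lymphatic markers were lower in the injured library, and summed pan-endothelial and fibroblast markers were higher. The part of this difference in the members' levels was not tested. In injured nerve Ccl2 stood at 210 CPM (intact 15.5), Selp at 108 CPM (19.4), Vcam1 at 59.8 CPM (16.6) and Cxcl2 at 49.7 CPM (2.59). Sele stood at 33.9 CPM (2.59), Ackr1 at 28.7 CPM (4.75), Cx3cl1 at 10.6 CPM (3.67) and Csf3 at 10.1 CPM (0.216). Of the injured Ackr1 UMIs in these barcodes 1 barcode held 32.7%, and of the Sele UMIs 27.7%.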

How the results depend on the processing

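No value at least 2-fold apart changed sign. Among smaller ones pooled Icam2 (-0.15) gave 0.34 with all barcodes and 0.0012 with classes weighted equally, pooled Ackr1 (0.11) -0.01 without cells holding 2 leukocyte marker UMIs, and Vcam1 in EC_BAR (-0.39) 0.04 with all annotated cells. In pooled endothelium the count of members at least 2-fold apart was 3, and 6 with all barcodes of the matrices, where 5 were higher against 2. All barcodes include cells without a class, among them fibroblast-like ones. The pooled count was 4 (3 higher) in thinned cells and for per-cell CPM averaged, where Sele (0.66) gave 1.03 and 1.24. Shares of all genes past 2-fold were computed for the main setting and for both venous labels summed only. Counts under other settings thus have no share to be read against. The log2 ratio of Csf3 (2.75) was 3.12 for per-cell CPM averaged, 3.23 with classes weighted equally, 3.54 with 1 CPM added and 2.35 without cells holding 2 leukocyte marker UMIs. Cxcl2 (2.38) gave 2.01 without any shared barcode and 3.30 with 1 CPM added. Cx3cl1 (-2.05) gave -1.75 without any shared barcode, -1.80 per cell, -1.14 with classes weighted equally, -1.28 with all barcodes, -2.34 with 1 CPM added and -2.37 in cells under 5% mitochondrial UMIs. Under EC_VEN-PV- the alternatives were chosen after seeing the data, except that of keeping all annotated cells. Against the median gene 2 members were lower there (main 1). With both venous labels summed 4 were at least 2-fold apart (main 7), 2 of them higher (main 6) and 2 lower. Selp there (5.06) gave 4.37 in thinned cells and 0.48 with both labels summed, and Ackr1 (5.44) gave 0.31 with both summed. Of the other settings of these results 129 stayed within the counting interval or 1.5 times the count, and for single members 193 stayed and 62 moved. With all annotated cells kept, the members highest under a venous label in intact nerve were 5 against 7. No paired analysis was possible because each condition is 1 library. Depth limits the low genes most: 3 counts stand for 6.09 CPM in intact EC_VEN-PV- and 8.45 CPM in injured EC_BAR.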

Other observations

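Glycam1 and Madcam1, both addressins that display ligands to lymphocytes in specialised venules, appeared under the venous labels after injury, and Madcam1 is named here after its values were seen. Glycam1 had 5 intact and 410 injured UMIs in EC_VEN-PV+ (3.72 and 86.2 CPM; ratio 23.2, 9.86 to 71.8) and 0 and 128 UMIs (89.1 CPM) in EC_VEN-PV-. Madcam1 had 0 intact and 119 injured UMIs (25.0 CPM) in EC_VEN-PV+, and 0 and 9 in EC_VEN-PV-. Cxcl12 differed the other way, from 461 to 40.8 CPM in EC_VEN-PV+, and from 1258 to 100.3 CPM in EC_VEN-PV-. Cxcl1 was higher in both, with 58.7 and 135 CPM in EC_VEN-PV+ (2.30, 1.81 to 2.94) and 69.1 and 284 CPM in EC_VEN-PV- (4.11, 2.90 to 6.02). Il6 had 51.3 and 77.6 CPM in EC_VEN-PV+ and 30.5 and 87.1 CPM in EC_VEN-PV- (2.86, 1.67 to 5.26).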
